A study of Mus musculus with 4 samples.

Results

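Melanin-concentrating hormone (MCH) neurons were taken here as nuclei in which *Pmch*, the gene of the MCH precursor, made up 2% or more of the UMIs (unique molecular identifiers, which count captured RNA molecules) with 20 or more *Pmch* UMIs. They are called Pmch nuclei below. Of 39176 nuclei kept from 4 single-nucleus RNA libraries of the mouse arcuate nucleus (ARC), 472 met both conditions, and 464 of these came from a single library, DOCA-salt 2. All 4 libraries were made from ARC punches of wildtype male C57BL/6J mice at 10 weeks of age, with the nuclei of 2 mice pooled in each. In the DOCA-salt group, mice received deoxycorticosterone acetate (DOCA) for 3 weeks from a pellet of 50 mg under the skin and were offered a 0.15 M NaCl drink, and the Sham group had sham surgery. Each group had 2 libraries. Because *Pmch* chose the nuclei and DOCA-salt 2 held nearly all of them, no comparison between DOCA-salt and Sham was made, no p-value was computed, and every value below is a description of the pooled nuclei with an interval that covers counting error only.

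MCH neurons are a peptide cell type best known from the lateral hypothalamic area and the zona incerta, next to the ARC, from which they project through much of the brain. MCH acts through the receptor Mchr1 and is known for its roles in feeding, energy balance and sleep. The peptide is released by proteolysis from the C-terminal end of its precursor, a step that prohormone convertases carry out at paired basic residues.

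*Pmch* (ENSMUSG00000035383) lies on the forward strand of mouse chromosome 10, at 88091072 to 88092375 of GRCm38. The end of its coding sequence is shown because it is the stretch from which the peptides that define these neurons are made. It was read from the GENCODE M21 transcript and spans the end of exon 2 (chr10:88091823-88091886) and the coding start of exon 3 (chr10:88092140-88092186). Capitals mark the 2 pairs of adjacent basic codons in the 165 codons of the coding sequence. The 14 codons between the pairs cover neuropeptide EI, and the last 19 codons before the stop encode MCH itself.
Pmch coding end: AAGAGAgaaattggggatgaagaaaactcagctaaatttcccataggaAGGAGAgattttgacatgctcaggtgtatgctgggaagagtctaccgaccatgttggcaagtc

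The 100 bases before the start of *Pmch* are shown beside those of *Tacr3*, the receptor gene with the largest ratio of Pmch nuclei to other neurons, and of *Hcrt*, the orexin precursor gene that marks the neighboring peptide cell type used as a comparison below. All 3 are from RefSeq on GRCm38.p6, at chr10:88090972-88091071 (forward strand), chr3:134828907-134829006 (forward strand) and chr11:100762932-100763031 (reverse strand). Capitals mark the letters TATAAA, which begin 27, 29 and 33 bases before the start, respectively.
Pmch upstream: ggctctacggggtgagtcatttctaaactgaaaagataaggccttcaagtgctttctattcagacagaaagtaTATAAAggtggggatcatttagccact
Tacr3 upstream: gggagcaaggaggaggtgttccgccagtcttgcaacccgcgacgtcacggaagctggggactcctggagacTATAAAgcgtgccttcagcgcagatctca
Hcrt upstream: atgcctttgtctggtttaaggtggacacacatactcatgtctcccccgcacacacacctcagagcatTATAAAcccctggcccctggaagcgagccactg

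Searched on both strands of the 250 bases before each start, TATAAA was present in 4063 of 32851 RefSeq promoters (12.4%). Among the 47 genes that were higher in Pmch nuclei (below), 35 matched an entry of the table with 54 promoters, and 7 of these 54 (13.0%) held the letters. The share of the higher genes was thus close to that of all promoters.

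DOCA-salt 2 stood apart from the other libraries in its *Pmch* content and in some markers of the ARC. In neurons other than Pmch nuclei, *Agrp*, the marker of the AgRP neurons, stood at 189, 1.51, 52.2 and 83.2 CPM (the UMIs of a gene per 1000000 UMIs of the group) in DOCA-salt 1, DOCA-salt 2, Sham 1 and Sham 2, the order used throughout. *Npy*, the neuropeptide Y precursor, stood at 211, 14.6, 126 and 208 CPM, and *Pomc*, the precursor of melanocortins, at 340, 39.4, 174 and 298 CPM. DOCA-salt 2 was thus the lowest in all 3. *Tac2*, another marker of ARC neurons, stood at 70.0, 70.2, 62.4 and 70.4 CPM and was not low there. The neurons of DOCA-salt 2 are the reference of the ratios below. The labels name the ARC as the tissue of all 4 libraries. Whether the punches of this pool reached the lateral hypothalamic area cannot be told from the counts, so the nuclei are not placed within the hypothalamus here. The deposited matrices held 45126915, 79437196, 53257230 and 59293582 UMIs in 10765, 19754, 2805 and 8325 barcodes, of which 10307, 18907, 2203 and 7759 were kept. Pmch nuclei numbered 1, 464, 2 and 5, which is 0.00970%, 2.45% (95% exact binomial interval 2.24 to 2.68%), 0.0908% and 0.0644% of the kept nuclei. Over all kept nuclei, *Pmch* stood at 29.2, 2849, 43.9 and 30.7 CPM. In DOCA-salt 2, 80.5% of the *Pmch* UMIs were in the Pmch nuclei, and the rest were spread widely, since 60.1% of all kept nuclei had at least 1 *Pmch* UMI. Nuclei that should lack the gene were among them. Oligodendrocyte-like nuclei were defined as those with 1% or more of their UMIs from 7 oligodendrocyte genes and fewer than 2 UMIs of *Snap25* plus *Syt1*. In DOCA-salt 2, 52.8% of these 659 nuclei had a *Pmch* UMI at a median of 897 UMIs per nucleus, against 60.8% of 14303 other neurons at a median of 3129 UMIs. Other neurons were nuclei with 2 or more UMIs of *Snap25* plus *Syt1*, both general neuronal genes, that were not Pmch nuclei. A single *Pmch* UMI was therefore read as background in DOCA-salt 2, and the 2% limit lies far above the level of most other neurons, whose median *Pmch* share was 0.0214% and whose 99th percentile was 0.875%.

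**Figure D1:**
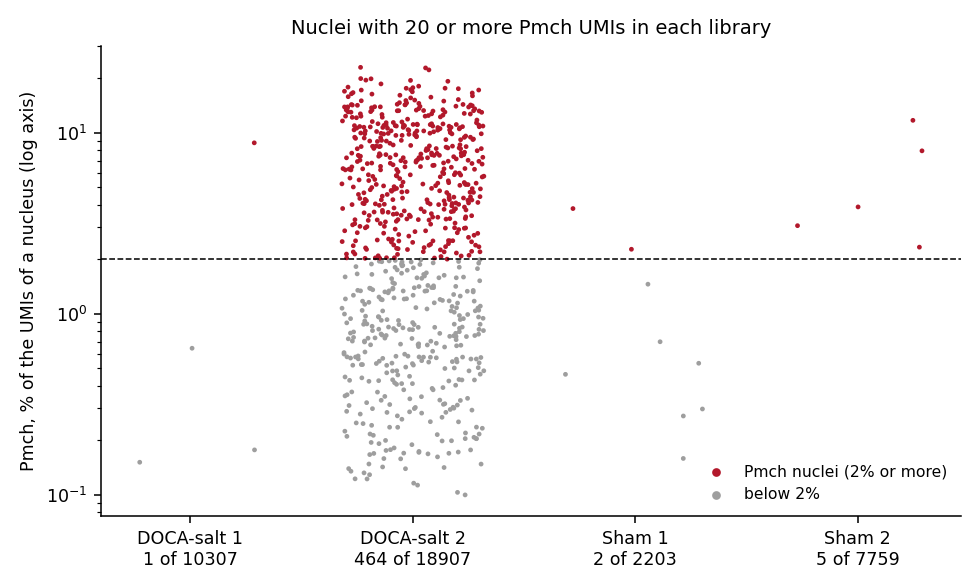
Share of the UMIs of a nucleus that came from *Pmch* (log axis, %), for each nucleus with 20 or more *Pmch* UMIs in the 4 libraries. Each point is a nucleus, red points are Pmch nuclei, grey points lie below the 2% limit (dashed line), and the numbers under each library give Pmch nuclei of kept nuclei, 464 of 18907 in DOCA-salt 2 against 1 to 5 elsewhere.

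The 464 Pmch nuclei of DOCA-salt 2 had between 20 and 3273 *Pmch* UMIs (median 142), and *Pmch* made up 2.00 to 22.9% of their UMIs (median 6.90%). The share has no gap at the limit. Among nuclei with 20 or more *Pmch* UMIs, 97 had a *Pmch* share of 1 to 2% and 67 had 2 to 3%. The closest of these nuclei on either side of the limit stood at 1.99 and 2.00%. The class is therefore a range of the *Pmch* share and not a separated group. Their depth varied widely, with a median of 2022 UMIs and a highest value of 24144, and 120 of the 464 had fewer than 1000 UMIs. The neuron condition of 2 UMIs of *Snap25* plus *Syt1* was met by 355 Pmch nuclei and not by 109, whose median depth was 823 UMIs. In the 109, *Cartpt* stood at 7551 CPM and *Tacr3* at 430 CPM, against 8169 and 268 CPM in the 355, while *Meg3*, a long non-coding RNA abundant in neuronal nuclei, stood at 1673 CPM against 5886 CPM. Depth was not matched, since the 355 had a median of 3572 UMIs. *Meg3* was also lower in shallow nuclei among other neurons, at 2584 CPM below 1000 UMIs against 7932 CPM at 2000 to 4000 UMIs. Median mitochondrial shares were 6.21% in Pmch nuclei and 5.62% in other neurons. A barcode sequence shared between libraries was found 122 times among the kept nuclei, 3 barcodes of Pmch nuclei in DOCA-salt 2 recurred elsewhere, and none marked a Pmch nucleus in both libraries.

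The given markers of the type were checked in the Pmch nuclei of DOCA-salt 2 against the other neurons of the same library. *Cartpt*, the precursor of the CART peptides, stood at 8141 CPM (95% exact Poisson interval 8022 to 8261) in Pmch nuclei and 125 CPM in other neurons, a log2 ratio of 6.02 (5.98 to 6.06). *Tacr3*, the receptor for neurokinin B, stood at 276 and 8.63 CPM, a log2 ratio of 5.00 (4.83 to 5.17). *Nptx1*, neuronal pentraxin 1, which gathers AMPA receptors at synapses, stood at 816 and 107 CPM, a log2 ratio of 2.94 (2.86 to 3.01). *Igf1*, insulin-like growth factor 1, stood at 130 and 4.37 CPM, a log2 ratio of 4.89 (4.64 to 5.13). All 4 genes that accompany *Pmch* on the marker list were thus at least 4-fold higher in the nuclei that *Pmch* chose.

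The markers were also seen nucleus by nucleus. Among the 162 Pmch nuclei with 4000 or more UMIs (median 9075, called deep below), *Cartpt* had between 0 and 367 UMIs with a median of 68, and 161 of the 162 had at least 1. Over the 5154 other neurons of that depth (median 6402.5 UMIs) the median was 0 and the highest count was 83 UMIs, so most Pmch nuclei had more *Cartpt* UMIs than most other neurons although the ranges overlapped. *Nptx1* had a median of 6 UMIs (0 to 53) in Pmch nuclei and of 0 (0 to 9) in other neurons. *Tacr3* had a median of 2 UMIs (0 to 14) against 0 (0 to 4), and *Igf1* a median of 1 (0 to 9) against 0 (0 to 3). To put depths on one footing, each nucleus was thinned to 500 UMIs, which left out none. *Cartpt* was then found in 88.4% of Pmch nuclei, 5.38% of other neurons and 7.59% of oligodendrocyte-like nuclei (95.5%, 22.9% and 13.2% without thinning). The share of *Cartpt* in other neurons after thinning was below that of a cell type that should lack it. Single *Cartpt* UMIs could therefore not be told from background at this depth, although some deep neurons held many. *Nptx1* was found in 30.6%, 4.66% and 2.73% of the 3 groups after thinning, and *Tacr3* in 13.8%, 0.399% and 0.152%.

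Markers of ARC neurons were low in the Pmch nuclei. In the other neurons of DOCA-salt 2, *Agrp*, *Npy* and *Pomc* were low too, while *Tac2* was not. The 11 genes of that list summed to 94.9 CPM, against 161 CPM in other neurons and 74.4 CPM in oligodendrocyte-like nuclei, and *Tac2* was the most abundant. *Pomc* stood at 19.2 CPM (42 UMIs) against 39.4 CPM in other neurons and 20.4 CPM in oligodendrocyte-like nuclei. *Agrp* had 4 UMIs in all 464 nuclei, 1.82 CPM beside 1.51 CPM in other neurons, and *Kiss1* had 0 both here and in the other neurons. The sums of other cell types were likewise near those of other neurons: 3189 against 3254 CPM for 6 general neuronal genes, 1933 against 2215 CPM for 7 astrocyte genes (*Slc1a2* the most abundant, none of 7 above other neurons), 1413 against 1691 CPM for 7 oligodendrocyte genes, 133 against 160 CPM for 6 precursor genes (*Olig1*), 83.5 against 73.5 CPM for 7 microglial genes, 101 against 132 CPM for 6 endothelial genes (*Cldn5*) and 12.8 against 17.4 CPM for 6 tanycyte and ependymal genes (*Ccdc153*). None of these 7 lists had a member at 0 UMIs in Pmch nuclei. Of their genes, 6 neuronal, 7 astrocyte, 7 oligodendrocyte, 5 precursor, 2 microglial, 4 endothelial and 0 tanycyte and ependymal genes passed the filter on level given below, and none of those differed 4-fold. Their part in the values below was not tested.

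Across the transcriptome, the difference of all 464 Pmch nuclei from other neurons lay in a small number of genes. More genes differed at a *Pmch* share of 8% or more, where 12.8% of the genes compared were 2-fold lower (below). Genes were compared when the mean of the 2 CPM values, unweighted, was 10 or more. A gene can pass this filter through the group in which it is high. Of 9944 genes compared, 47 were 4-fold or more higher in Pmch nuclei (0.473% of the genes compared) and 2 were 4-fold or more lower (0.0201%). At 2-fold, 140 genes were higher (1.41%) and 181 lower (1.82%). The median log2 ratio of all genes compared was -0.21. With *Pmch* left out of the total of each group, this median was -0.10. *Pmch* itself, at 72565 against 547 CPM, was left out of these counts because it chose the nuclei.

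The genes with the largest ratios after the given markers covered several roles. *Otx1*, a homeodomain transcription factor, had 116 UMIs in Pmch nuclei, where it stood at 52.9 CPM against 0.769 CPM in other neurons, a log2 ratio of 6.11 (5.61 to 6.62). It was found in 61 of the 162 deep Pmch nuclei, with at most 5 UMIs in any of them, so it was sparse even where it was highest in ratio. *Mup6* had a larger ratio still, 6.42 (75 UMIs), but belongs to the major urinary protein family, whose members are close copies of each other, and its counts are uncertain for that reason. *Fkbp11*, a peptidyl-prolyl isomerase of the endoplasmic reticulum, stood at 109 against 6.13 CPM (log2 ratio 4.15). *Rspo3*, a secreted enhancer of Wnt signaling, stood at 46.1 against 4.77 CPM (3.27). *Ell2*, a transcription elongation factor, stood at 134 against 15.3 CPM (3.13), and *Parm1* at 571 against 74.5 CPM (2.94). The remaining genes of the 15 with the largest ratios were *Slc5a7*, *Bst2*, *S100a11*, *Osbpl3* and *Fam46a*, with log2 ratios between 3.02 and 3.96. *Parm1* and *Fam46a* had a UMI in 149 and 130 of the 162 deep nuclei.

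The rest of the 47 higher genes, beyond these and those described below, were named after their values were seen. *Pcdh8*, a protocadherin, stood at 431 against 71.3 CPM (log2 ratio 2.60) and had a UMI in 143 of the 162 deep nuclei. *Ntn1* and *Ntn4*, both netrins, which guide axons, stood at 22.8 against 5.29 CPM (2.11) and 16.4 against 3.88 CPM (2.08). *Cthrc1*, a secreted collagen triple helix repeat protein, stood at 92.6 against 21.5 CPM (2.10), *Serpinf1*, which encodes the secreted factor PEDF, at 36.5 against 7.02 CPM (2.38), and *Adamts5*, a matrix protease, at 18.3 against 4.40 CPM (2.05). *Rcn1*, a calcium-binding protein of the endoplasmic reticulum, stood at 282 against 42.7 CPM (2.72). *Deptor*, which binds and inhibits mTOR, stood at 190 against 36.5 CPM (2.38). *Maged2*, an X-linked member of the MAGE family, and *Klhl13*, an X-linked adaptor of a ubiquitin ligase, had 978 and 729 UMIs in Pmch nuclei and log2 ratios of 2.36 and 2.09. The others were *Cd302*, *Adgrf5*, *Dmrtb1*, *Mapk4*, *Sgms2*, *Pld5*, *Cox7a1*, *Abtb2*, *Dab2*, *Thsd7a*, *Cd59a* and *Cd24a*, with log2 ratios between 2.01 and 2.75.

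**Figure D2:**
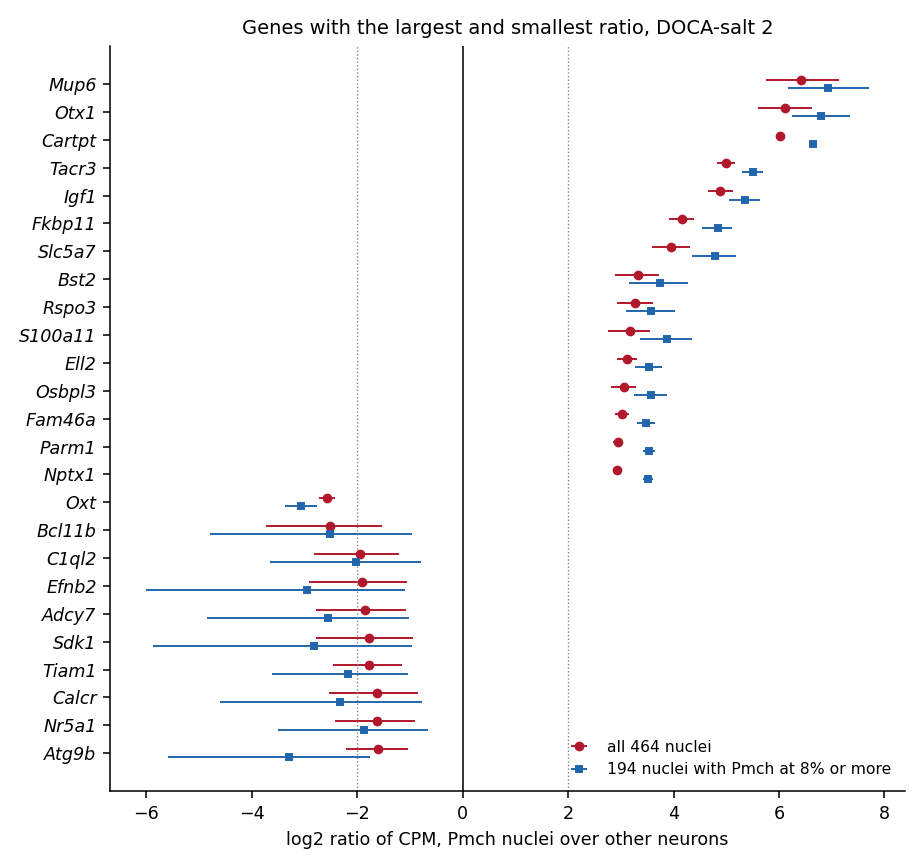
Log2 ratio of CPM in Pmch nuclei over other neurons of DOCA-salt 2 for the 15 genes of largest and 10 of smallest ratio, with 95% exact binomial intervals that cover counting error only and dotted lines at 4-fold. Red circles are all 464 Pmch nuclei and blue squares the 194 with a *Pmch* share of 8% or more, in which each of the 15 upper genes had a larger ratio, such as 6.65 against 6.02 for *Cartpt*.

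The number of genes that were 4-fold lower depended on the nuclei taken. It was 2 in all Pmch nuclei, 24 without the nuclei of highest doublet score (1 of the 2 among them), and 137, against 80 higher genes, at a *Pmch* share of 8% or more. *Oxt*, the oxytocin precursor, stood at 162 CPM in Pmch nuclei and 963 CPM in other neurons (log2 ratio -2.58), and 33.9% of its 354 UMIs came from 1 nucleus. *Oxt* also stood at 425 CPM in oligodendrocyte-like nuclei, so its level in Pmch nuclei was below that of a type that should lack it. *Bcl11b*, a transcription factor, stood at 3.65 against 20.8 CPM (-2.51, 8 UMIs). The other genes of the 10 with the smallest ratios were *C1ql2*, *Efnb2*, *Adcy7*, *Sdk1*, *Tiam1*, *Calcr*, *Nr5a1* and *Atg9b*, between -1.95 and -1.60 and none with more than 26 UMIs.

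Among 32 neuropeptide and secreted factor genes, 21 were compared, of which 3 were 4-fold higher and 1 was 4-fold lower (0.473% and 0.0201% of all genes), and the median log2 ratio was -0.75 against -0.21 for all genes. *Cartpt* and *Igf1* were 2 of the 3. *Nucb2*, the precursor of nesfatin-1, was the other one, at 132 against 19.1 CPM (log2 ratio 2.79, 2.60 to 2.98). *Npvf*, an RFamide peptide precursor, had a log2 ratio of 1.44, but its 204 UMIs lay in 6 nuclei and 50.0% of them in 1, and only 1 UMI was found in the 194 nuclei with a *Pmch* share of 8% or more. *Gal*, *Trh* and *Tac1* stood at 69.4, 111 and 71.6 CPM, with log2 ratios between -0.95 and -0.52. Beside *Cartpt*, *Igf1*, *Nucb2* and *Npvf*, the highest log2 ratio among the 21 was 0.03, that of *Hcrt*.

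Of 18 genes for the synthesis and transport of amino acid, monoamine and acetylcholine transmitters, 9 were compared, with 1 that was 4-fold higher and none that was 4-fold lower (0.473% and 0.0201% of all genes), and a median log2 ratio of -0.47 against -0.21 for all genes. *Gad1*, a GABA-synthesizing enzyme, stood at 527 CPM in Pmch nuclei and 366 CPM in other neurons (log2 ratio 0.53). *Gad2*, the other GABA-synthesizing enzyme, stood at 373 against 658 CPM (-0.82). *Slc32a1*, the vesicular transporter that loads GABA, stood at 146 against 267 CPM (-0.88), and *Slc17a6*, the vesicular glutamate transporter VGLUT2, at 129 against 178 CPM (-0.47). Of the 4, *Gad1* alone was above other neurons. *Slc5a7*, the high-affinity choline transporter, was the gene that was 4-fold higher, at 47.4 against 3.06 CPM (3.96, 3.60 to 4.31). *Chat* and *Slc18a3*, the choline acetyltransferase and vesicular acetylcholine transporter that complete a cholinergic neuron, had 0 UMIs in the 464 nuclei, which allows up to 1.37 CPM. They stood at 0.0961 CPM and 0.352 CPM in other neurons, below that limit, so a difference was not detectable at this depth.

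Of 59 receptor genes for peptides, hormones and amines, 35 were compared, 5 were 4-fold higher and none 4-fold lower (0.473% and 0.0201% of all genes), with a median log2 ratio of -0.26 against -0.21 for all genes. Beside *Tacr3*, these were *Adra2a*, the alpha-2A adrenergic receptor (123 against 19.0 CPM, log2 ratio 2.69), *Gpr83*, a G protein-coupled receptor (144 CPM in Pmch nuclei, 2.52), *Npy2r*, a receptor for neuropeptide Y (52.0 against 10.8 CPM, 2.27), and *Chrna3*, a subunit of nicotinic acetylcholine receptors (20.5 against 4.90 CPM, 2.07). *Hrh3*, the histamine H3 receptor, had a ratio of 0.95. Of the receptors for MCH and the orexins, *Mchr1* had a log2 ratio of 0.12 (25 UMIs), *Hcrtr1* of 0.13 (41 UMIs) and *Hcrtr2* of -0.92 (-1.68 to -0.25, 18 UMIs). *Lepr*, the leptin receptor, had 2 UMIs in all Pmch nuclei. *Nr3c2*, the mineralocorticoid receptor on which DOCA acts, stood at 9.12 against 11.8 CPM (20 UMIs).

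Peptide processing genes were all measured well enough to compare, and their median log2 ratio was 0.22, beside -0.21 for all genes. Of the 38, 2 were 4-fold higher (0.473% of all genes), 4 were 2-fold higher (1.41%) and 1 was 2-fold lower (1.82%). *Pcsk2*, prohormone convertase 2, which cleaves at the paired basic residues encoded in the sequence printed above, stood at 1041 CPM (998 to 1084) against 196 CPM, a log2 ratio of 2.41. Its median was 10 UMIs (0 to 41) in deep Pmch nuclei and 1 (0 to 15) in other neurons, and 160 of 162 had a UMI. *Pcsk1*, the other main convertase of neurons, stood at 41.5 against 28.7 CPM (0.53). *Creb3l1*, a transcription factor anchored in the endoplasmic reticulum, stood at 30.1 against 6.70 CPM (2.17). *Rab3b*, a GTPase of secretory vesicles, had a log2 ratio of 1.25 and *Ssr4*, a subunit of the translocon-associated complex, 1.02. *Pam*, which amidates peptides, *Chga*, a granin, *Resp18*, a granule protein, and *Hspa5*, the main chaperone of the endoplasmic reticulum, had smaller ratios between 0.61 and 0.82. The 2-fold lower gene was *Cadps2* (-1.01), and *Cpe*, the carboxypeptidase that trims peptides after cleavage, stood at 798 against 867 CPM.

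Of 47 transcription factor genes, 30 were compared, 1 was 4-fold higher and 1 was 4-fold lower (0.473% and 0.0201% of all genes), 2 were 2-fold higher and 12 were 2-fold lower (1.41% and 1.82% of all genes), and the median log2 ratio was -0.93 against -0.21 for all genes. *Nkx2-1*, a factor of the developing ventral hypothalamus, stood at 136 against 22.9 CPM (2.57, 2.38 to 2.75), and *Zic1* at 260 against 121 CPM (1.11). *Lef1*, a Wnt pathway factor outside the list and among the 47 higher genes, stood at 41.5 against 9.51 CPM (2.13). Below other neurons were *Onecut2* (-1.37), *Six3* (-1.25), *Dlx1* (-0.93), *Otp* (-0.90) and *Zfhx3* (-1.15).

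None of 32 potassium channel genes, 25 sodium, calcium and TRP channel genes, 18 GABA and glycine receptor genes and 22 glutamate receptor genes that were compared was 4-fold higher or lower (0.473% and 0.0201% of all genes), and the median log2 ratios were -0.36, -0.32, -0.34 and -0.26, beside -0.21 for all genes. *Kcnc2*, a fast delayed rectifier, had the largest ratio of the potassium channel list (1.00, 106 against 53.0 CPM), followed by *Abcc8*, the sulfonylurea receptor of ATP-sensitive potassium channels (0.93). *Kcnk9*, *Kcnj3* and *Kcna1* were 2-fold lower, as were *Gabre*, *Gabrq* and *Glra3*, that is 3 of 32 and 3 of 18 against 1.82% of all genes. Channel genes outside these lists were 4-fold higher, *Chrna3* as given above and *Kcnj2*, an inward rectifier, at 38.8 against 9.15 CPM (2.08). In the 194 nuclei with a *Pmch* share of 8% or more, 3 of 33 potassium channel genes, 2 of 18 GABA and glycine receptor genes and 1 of 22 glutamate receptor genes were 4-fold lower, against 1.40% of all genes. Of 32 synaptic adhesion genes compared, with a median of -0.17, *Nptx1* was 4-fold higher (0.473% of all genes), *Cbln1*, a synaptic organizer, was 2-fold higher (344 against 128 CPM, 1.43), and *C1ql2* and *Cdh13* were 2-fold lower. At a *Pmch* share of 8% or more, 3 of 32 synaptic adhesion genes were 4-fold lower. Among 11 insulin and IGF pathway genes compared, with a median of -0.25, *Igf1* was the only one past 2-fold (1.41% higher and 1.82% lower of all genes). Its receptor *Igf1r* stood at 121 against 97.7 CPM (0.31). At 8% or more, 2 of 12 genes of this list were 4-fold higher and 1 was 4-fold lower (0.817% and 1.40% of all genes). The 9 immediate early genes compared had a median of -0.58 and none past 2-fold (1.41% higher and 1.82% lower of all genes). At 8% or more, 1 of 8 was 4-fold lower and 2 were 2-fold lower (1.40% and 12.8% of all genes).

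Because *Pmch* RNA was also found outside the Pmch nuclei, the ratio of *Pmch* to *Cartpt* UMIs was compared between groups. It was 8.91 *Pmch* UMIs per *Cartpt* UMI (8.78 to 9.05) in Pmch nuclei, 4.37 in other neurons and 5.94 (4.81 to 7.40) in oligodendrocyte-like nuclei. *Parpbp* is a gene on the opposite strand that overlaps *Pmch* (reverse strand, chr10:88091432-88146941). It had 19 UMIs in Pmch nuclei against 34 in all other neurons, 8.67 against 0.545 CPM, and it was below the filter.

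Pmch nuclei varied in composition along the *Pmch* share itself. The 233 nuclei with 2000 or more UMIs were split into tertiles of 78, 78 and 77 nuclei, with *Pmch* shares of 2.00 to 4.04%, 4.05 to 8.40% and 8.41 to 19.8%. *Cartpt* stood at 3383, 7679 and 13193 CPM in the lowest, middle and highest tertile, *Nptx1* at 410, 743 and 1275 CPM, and *Tacr3* at 143, 268 and 364 CPM. The 46 higher genes without *Cartpt* summed to 3713, 6481 and 10727 CPM. These genes were chosen in the same nuclei, so this sum is a description. The tertiles also differed in quality. The median mitochondrial share was 5.94%, 4.77% and 3.23%, and the 6 endothelial genes summed to 200 CPM, 54.5 CPM and 56.9 CPM. A high doublet score, by the measure given under the processing, was carried by 58 (74.4%), 31 (39.7%) and 1 (1.30%) of the nuclei. The 7 astrocyte genes summed to 2751, 1945 and 919 CPM and the 7 oligodendrocyte genes to 1852, 1525 and 677 CPM, and *Hcrt* stood at 2133, 450 and 85.4 CPM. A few nuclei carried the *Hcrt* values, since 3 nuclei with 651, 433 and 47 *Hcrt* UMIs held most of the 1279 of the lowest tertile, and 1 nucleus with 248 held most of the 322 of the middle one. The 6 general neuronal genes were level in sum, at 3181, 3208 and 3265 CPM, but not each by itself. *Snap25* stood at 1254, 1134 and 1088 CPM, *Syt1* at 879, 945 and 951 CPM, and *Stmn2* at 517, 669 and 840 CPM. The part of doublets, of RNA quality and of RNA from other cells in these differences was not tested.

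The transmitter genes separated along the same axis. *Gad1* stood at 409, 535 and 620 CPM in the 3 tertiles, a log2 ratio of highest over lowest of 0.60 (0.37 to 0.84). *Gad2* stood at 550, 441 and 163 CPM, a log2 ratio of -1.76 (-2.09 to -1.43). *Slc32a1* stood at 237, 152 and 52.2 CPM, a log2 ratio of -2.18 (-2.77 to -1.63). Of these 3 genes, *Gad1* alone was higher where *Pmch* was higher. In the highest tertile, *Slc32a1* and *Gad2* were below their levels in oligodendrocyte-like nuclei (107 and 260 CPM), while *Gad1* was above its own (121 CPM). Depth was not matched, with medians of 6789 UMIs in that tertile and 897 in oligodendrocyte-like nuclei. Whether the *Slc32a1* and *Gad2* UMIs of that tertile were background was not tested. *Slc17a6* stood at 157, 141 and 94.9 CPM, and the interval of the highest tertile, 72.4 to 122 CPM, holds the level of oligodendrocyte-like nuclei, 75.9 CPM. Since *Pmch* takes a larger part of the total in the highest tertile, the ratios were also computed without *Pmch* in the total, which gave 0.75 for *Gad1*, -1.61 for *Gad2* and -2.04 for *Slc32a1*. Nucleus by nucleus, 54 of 55 Pmch nuclei of the highest tertile with 4000 or more UMIs (median 7956) had a *Gad1* UMI, 14 had a *Slc32a1* UMI and 26 a *Slc17a6* UMI. *Gad2* had a UMI in 52.7% of the 55. A *Gad1* UMI without one of *Slc32a1* was found in 40 of these 55 (72.7%). Over all 162 deep Pmch nuclei, 153 had a *Gad1* UMI, 92 (56.8%) a *Slc32a1* UMI and 67 (41.4%) *Gad1* without *Slc32a1*, and in other neurons of that depth the last was found in 720 of 5154 (14.0%).

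**Figure D3:**
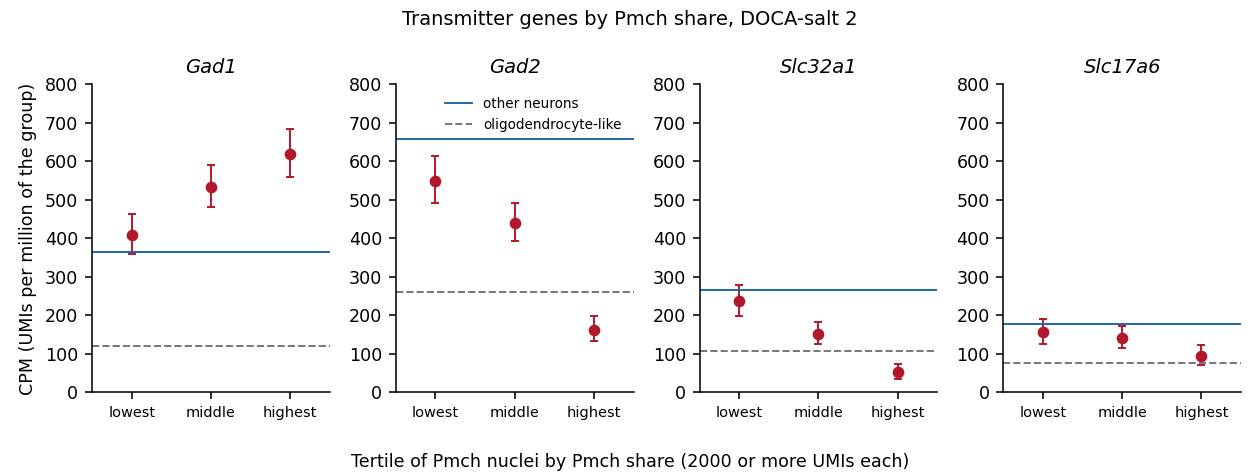
CPM of *Gad1*, *Gad2*, *Slc32a1* and *Slc17a6* in tertiles of the 233 Pmch nuclei with 2000 or more UMIs, ordered by *Pmch* share, with 95% exact Poisson intervals that cover counting error only. Blue lines are other neurons and dashed grey lines oligodendrocyte-like nuclei of DOCA-salt 2, and *Gad1* goes from 409 to 620 CPM while *Slc32a1* goes from 237 to 52.2 CPM.

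*Cartpt* and *Tacr3* rose with the *Pmch* share on both sides of the 2% limit. The ranges of the *Pmch* share used here hold only nuclei with 20 or more *Pmch* UMIs, so shallow nuclei with the lower shares are left out. *Cartpt* stood at 410, 859 and 1599 CPM in such nuclei with a *Pmch* share of 0.25 to 0.5% (63 nuclei), 0.5 to 1% (112) and 1 to 2% (97). It stood at 2721, 4070, 7098 and 12601 CPM in Pmch nuclei with 2 to 3% (67), 3 to 4% (50), 4 to 8% (153) and 8% or more (194). The share of nuclei with a high doublet score was 47.6%, 45.5% and 56.7% below the limit and 64.2%, 54.0%, 31.4% and 3.09% above it, against 18.1% of other neurons. High doublet scores were thus most frequent just above the limit and rare at a *Pmch* share of 8% or more. Depth was not matched here. The 7 ranges had medians of 9472, 5033, 3799, 2750, 3830, 2025 and 1587 UMIs, against 3129 in other neurons. In other neurons the share with a high score was 12.4% at 2000 to 4000 UMIs, 27.5% at 4000 to 8000 and 45.4% at 8000 to 25000. *Tacr3* went from 25.7 to 391 CPM over the 7 ranges, and *Slc32a1* stayed between 224 and 290 CPM up to 4% and then stood at 147 and 66.9 CPM.

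**Figure D4:**
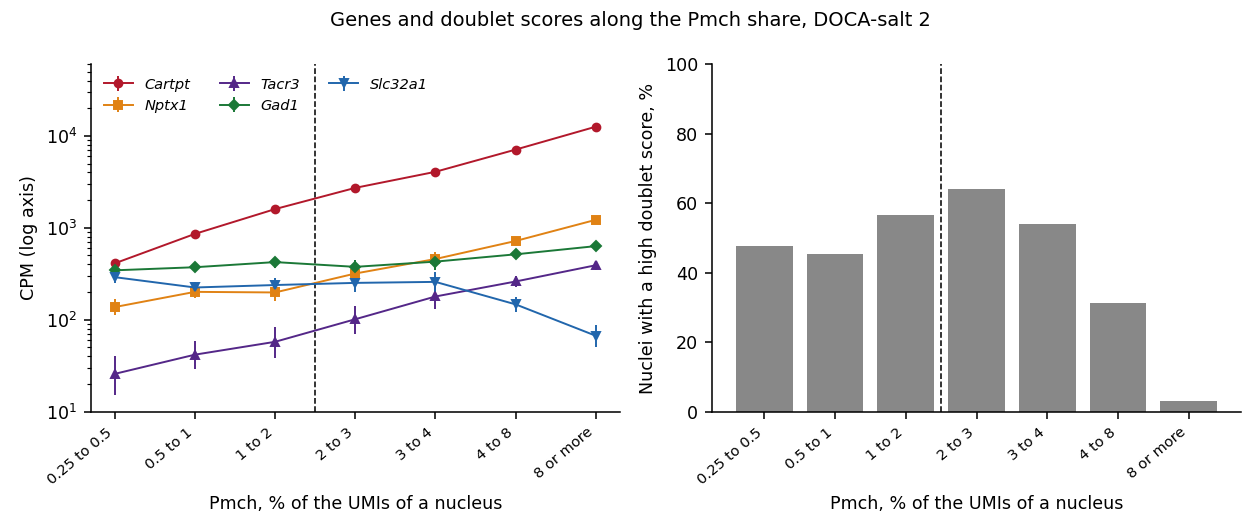
Left, CPM (log axis) of 5 genes in nuclei of DOCA-salt 2 with 20 or more *Pmch* UMIs, grouped by *Pmch* share, with 95% exact Poisson intervals that cover counting error only. Right, share of those nuclei with a high doublet score (%). The dashed line is the 2% limit, and *Cartpt* goes from 410 to 12601 CPM across the 7 ranges while the share of high doublet scores goes from 64.2% at 2 to 3% to 3.09% at 8% or more.

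In the 194 nuclei with a *Pmch* share of 8% or more, more genes stood apart from other neurons. Of 9797 genes compared, 80 were 4-fold higher (0.817%) and 137 were 4-fold lower (1.40%), and all 47 genes of the full comparison were among the 80. At 2-fold, 275 were higher (2.81%) and 1258 lower (12.8%), with a median log2 ratio of -0.34. *Pmch* alone stood at 119000 CPM in the 194 nuclei, and its part of the total lowers the ratios of all other genes. These counts were not repeated with *Pmch* left out of the total. Markers of other cell types were lower too. The 7 astrocyte genes summed to 1026 against 2215 CPM (6 of 7 were 2-fold lower), the 7 oligodendrocyte genes to 750 CPM against 1691 CPM (2 of 7 were 4-fold lower) and the 6 endothelial genes to 49.8 against 132 CPM, and their part in the lower genes was not tested. *Cartpt* had a log2 ratio of 6.65, *Tacr3* of 5.50, *Igf1* of 5.35, *Pcsk2* of 2.97 and *Nkx2-1* of 3.08, each larger than over all Pmch nuclei. On the lower side, 10 transcription factor genes of 28 compared were 4-fold lower, among them *Dlx1* (-2.59), *Onecut2* (-2.76), *Six3* (-2.38) and *Otp* (-2.25). Of the 21 neuropeptide genes compared, 9 were 4-fold lower, among them *Trh* (-2.70), *Penk* (-2.49) and *Nts* (-4.74, 1 UMI). Of the 38 processing genes, 8 were 2-fold higher and 2 were 2-fold lower.

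Hcrt nuclei, with *Hcrt* at 1% or more of the UMIs and 10 or more *Hcrt* UMIs, gave a comparison with the other peptide type known from the lateral hypothalamic area. They too came nearly all from DOCA-salt 2, with 0, 191, 2 and 0 in the 4 libraries after Pmch nuclei were left out, and *Hcrt* stood at 1.74, 803, 13.0 and 2.48 CPM over all kept nuclei. Median depth was 3238 UMIs. Of 9782 genes compared, 45 were 4-fold higher in Pmch nuclei (0.460%) and 42 were 4-fold higher in Hcrt nuclei (0.429%). *Tacr3* (276 against 4.92 CPM, log2 ratio 5.81), *Cartpt* (8141 against 152 CPM, 5.74), *Fkbp11* (5.21) and *Igf1* (130 against 3.94 CPM, 5.04) had the largest ratios apart from *Mup6*. *Otx1* had 116 UMIs in Pmch nuclei and 0 in Hcrt nuclei, and was at least 17.9-fold higher with the Hcrt nuclei set at the 3 UMIs that a count of 0 allows. *Crhbp*, which binds corticotropin-releasing hormone, had a ratio of 4.12 on 75 against 2 UMIs. On the other side stood *Lhx9*, a LIM homeobox factor (2.74 against 96.4 CPM, -5.14), *Pdyn*, the dynorphin precursor (23.7 against 482 CPM, -4.34), *C1ql3* (-3.97), *Col18a1* (-3.84) and *Rfx4* (-3.57).

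*Nptx1* was higher in Pmch nuclei (816 against 63.0 CPM, 3.70) and *Nptx2*, another neuronal pentraxin, in Hcrt nuclei (20.1 against 220 CPM, -3.46). *Pcsk2* was higher in Pmch nuclei (1041 against 241 CPM, 2.11) and *Scg2*, a granin, in Hcrt nuclei (370 against 2828 CPM, -2.93). *Gad1* stood at 527 against 241 CPM (1.13), while *Gad2* (0.04, -0.14 to 0.22) and *Slc32a1* (-0.13, -0.41 to 0.15) had intervals that include 0. These 2 ratios pool Pmch nuclei that differed along the *Pmch* share. From the lowest to the highest tertile given above, *Gad2* went from 550 to 163 CPM and *Slc32a1* from 237 to 52.2 CPM. Both genes were thus above the Hcrt nuclei in the lowest tertile and below them in the highest. The comparisons with other neurons and with Hcrt nuclei share the Pmch nuclei. The *Hcrt* condition was also met by 6 of the 464 Pmch nuclei, beside 191 others among the 18907 nuclei kept in DOCA-salt 2. The 6 held 1452 of the 1794 *Hcrt* UMIs (80.9%) found in Pmch nuclei. Of the 6, 3 were among the deepest, with 22246, 19614 and 16234 UMIs, and 1 had a high doublet score.

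**Figure D5:**
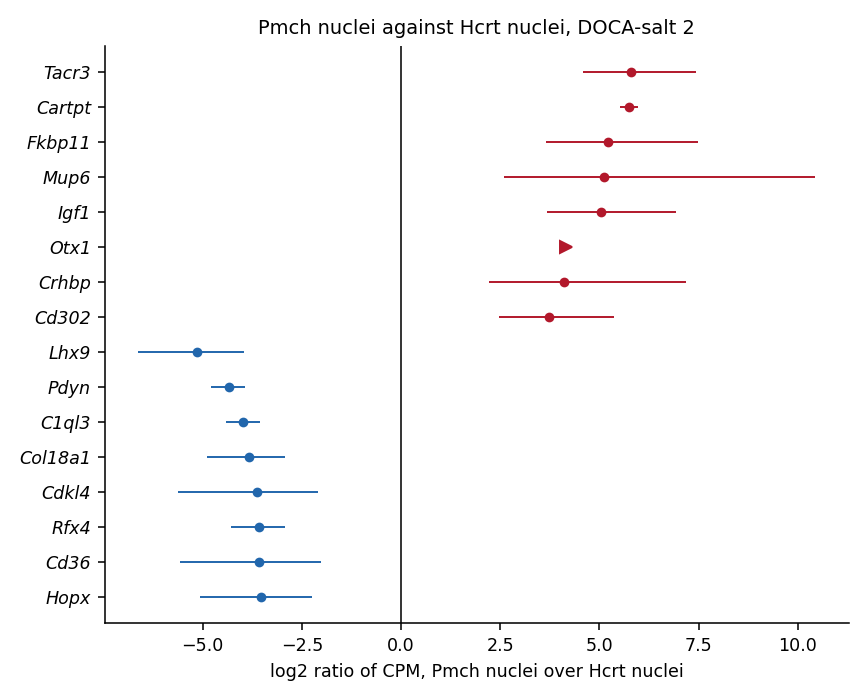
Log2 ratio of CPM in Pmch nuclei over Hcrt nuclei of DOCA-salt 2 for the 8 genes of largest (red) and 8 of smallest (blue) ratio, with 95% exact binomial intervals that cover counting error only. The red triangle of *Otx1* is a lower bound, since Hcrt nuclei had 0 UMIs, and the values run from 5.81 for *Tacr3* to -5.14 for *Lhx9*.

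The 8 nuclei of the other libraries that met the *Pmch* condition were too few to compare and are given as values. The single nucleus of DOCA-salt 1 had 8871 UMIs, of which 779 were *Pmch*, 134 *Cartpt*, 7 *Tacr3*, 8 *Nptx1*, 9 *Gad1* and 0 *Slc17a6*. The 2 of Sham 1 had 148 and 163 *Pmch* UMIs with 1 and 11 *Cartpt* UMIs. The 5 of Sham 2 had between 55 and 370 *Pmch* UMIs and together 285 *Cartpt* UMIs, of which the lowest nucleus had 9. All 8 had a *Cartpt* UMI and none had a *Hcrt* UMI. Summed over nuclei, *Cartpt* was 45.5, 6.89 and 57.5 times its CPM in other neurons of the same library (DOCA-salt 1, Sham 1, Sham 2), against 65.0 times in DOCA-salt 2. The 46 other higher genes, chosen in DOCA-salt 2, summed to 9.49, 2.70 and 7.15 times the level of other neurons in the 3 libraries, against 6.30 times in DOCA-salt 2. The 2 nuclei of Sham 1 were the lowest in both sums, and 1 of them, like 1 of the 5 nuclei of Sham 2, had no UMI of *Tacr3*, *Nptx1*, *Igf1*, *Otx1* or *Parm1*.

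*Cartpt* is known to divide MCH neurons into groups that do and do not express it. In Pmch nuclei with 2000 or more UMIs, the *Cartpt* share ran from 0 to 2.91% of the UMIs with a median of 0.624%, and some nuclei rich in *Pmch* held little of it. As examples chosen after their values were seen, a nucleus of 3250 UMIs had 450 *Pmch* and 0 *Cartpt* UMIs, one of 6702 UMIs had 563 and 3, and one of 4994 UMIs had 482 and 2. Of the 464 nuclei, 443 (95.5%) had a *Cartpt* UMI, but 13.2% of oligodendrocyte-like nuclei had one too, so a UMI or a pair of them does not mark a nucleus as expressing the gene. Among the 344 with 1000 or more UMIs, 329 had 2 or more, 6 had 1 and 9 had none. This split by UMI number put the deep nuclei poor in *Cartpt*, such as those with 2 or 3 UMIs above, on the side with *Cartpt*, and it is no division into cells that do and do not express it. The 9 together held 19714 UMIs, so the 7055 genes compared between them and the 329 rest on very few counts. Of these, 315 were 2-fold higher in the 329 (4.46%) and 2903 were 2-fold lower (41.1%). The mean CPM filter was 20 here, and 1 UMI in the 9 nuclei is 50.7 CPM, enough to pass it alone. Genes low in the 329 that pass through such a UMI must come out lower, so no conclusion is drawn from the 2903. The 8 genes of largest ratio were *Dnm3*, *Pld3*, *Herc1*, *Rcn1*, *Hcrt*, *Pura*, *Pclo* and *Tacr3*, each with 0 or 1 UMI in the 9 nuclei. Their intervals were wide, with a log2 ratio of 2.91 (0.43 to 8.21) for *Dnm3* and of 2.42 (-0.07 to 7.72) for *Tacr3*. *Nptx1* stood at 822 CPM in the 329 and 304 CPM (6 UMIs) in the 9, a log2 ratio of 1.43 (0.31 to 2.88). The 8 genes listed at the smallest ratio were *Mamdc2*, *Tspo*, *Fam159b*, *Kctd11*, *Isg20*, *Thap8*, *Pla2g4c* and *Trbc2*. Each had 1 UMI in the 329 and 1 in the 9, a log2 ratio of -6.72 (-13.0 to -0.42).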

How the data were processed

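The authors deposited whole UMI counts per gene and barcode, made with Cell Ranger 3.0.1 on GRCm38/mm10 from barcodes called as nuclei and not normalized. Barcodes were kept if they had over 200 and under 7000 genes, under 25000 UMIs and a mitochondrial share under 15%. UMIs were summed over nuclei and expressed per 1000000 (CPM), with exact Poisson intervals for levels and exact binomial intervals for ratios (95%, scipy 1.17.1, Python 3.11.15), after a test on simulated data. A gene with 0 UMIs in 1 group was set at 3 UMIs as a bound. Nuclei of a library are not replicates, so no test was run, and separate libraries are the only replicates. Doublets were scored per library with Scrublet (scanpy 1.11.5). Its automatic threshold called 0, 0, 4 and 0 nuclei, so the highest scores at 0.8% per 1000 nuclei were marked (850, 2860, 39 and 482) and kept. Free RNA was not removed, since no empty droplets were used here.

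Members and gene lists were chosen with earlier results of these data known. Genes named are the given markers, genes of the lists, the 15 of largest and 10 of smallest ratio over other neurons, the 8 each way over Hcrt nuclei and with *Cartpt*, and genes overlapping *Pmch*, leaving out predicted and mitochondrial genes. The other genes of the 47 and the lower genes at a *Pmch* share of 8% were named after their values were seen. The tertiles of the *Pmch* share, its 7 ranges and the limit of 8% were also chosen after seeing the data. Sequences are from RefSeq (GRCm38.p6) and GENCODE M21. The most abundant gene of some cell type lists is not reported here.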

Additional observations from a re-analysis of the deposited data

How the results depend on the processing

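No paired analysis was possible because the results come from no test, and leaving out each replicate was not run because 1 library holds the Pmch nuclei. Over the alternatives run, the log2 ratio of *Cartpt* stayed between 5.88 and 6.65, of *Tacr3* between 4.83 and 5.50, of *Nptx1* between 2.74 and 3.52, of *Igf1* between 4.64 and 5.35 and of *Gad1* between 0.48 and 0.79. The number of Pmch nuclei became 233 with 2000 or more UMIs required and 194 with a *Pmch* share of 8% or more, both chosen after seeing the data. It was 561 at a *Pmch* share of 1%, 347 at 4% and 500 without upper limits on genes and UMIs. Without the nuclei of highest doublet score it was 340, since 124 of the 464 (26.7%) had a high score, against 18.1% of other neurons.

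The 47 genes higher than in other neurons became 80 at a *Pmch* share of 8%, 89 with a mean CPM filter of 2 in place of 10, and 21 with a filter of 50. The 2 lower genes became 1 at a *Pmch* share of 1%, 13 at 4%, 137 at 8%, 24 without the nuclei of highest doublet score, 4 without nuclei that also met the *Hcrt* condition (chosen after seeing the data), 14 with the mean of shares per nucleus, 41 with the CPM filter of 2 and 1 with that of 50. Genes higher than in Hcrt nuclei numbered 18 with the CPM filter of 50. In the *Cartpt* split, the 315 higher genes became 163 with 2000 or more UMIs and 170 without the highest doublet scores, and the 2903 lower genes became 1052 with a filter of 50. The cause of these shifts was not tested, except that a CPM filter changes how many genes are compared. Depth limits the *Cartpt* split, in which the 9 nuclei without *Cartpt* held 19714 UMIs.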
